A study of Mus musculus with 16 samples.

Results

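miR-21a is the microRNA (miRNA) that took the largest share of reads in most libraries of these C2C12 cells, mouse myoblasts grown as a line and able to fuse into myotubes in low serum. Its hairpin gives 2 mature strands, miR-21a-5p and miR-21a-3p, and both are described here out of 2273 miRNA names in the deposited tables. The rows were taken by name: a row belongs to an arm when its listed name is that arm's name, with or without the letter a. The pair was chosen by the high read share of miR-21a-5p in these same libraries, so its ranks and levels are a description, and the comparison of its level between the media is not independent of that choice.

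The 16 libraries form 4 groups of 4. Control cells (labelled wild-type, 2 populations) and triple-knockout cells (tKO, 2 clones, without both miR-1a hairpins, miR-1a-1 and miR-1a-2, and without miR-206) were each taken in growth medium (GM, 20% fetal bovine serum) and after 3 days in differentiation medium (DM3, 2% horse serum). Each line gave 2 biological replicates, so the 4 libraries of a group come from 2 lines, and a tKO line is a single clone. The growth protocol calls the cells PAX7 NEG for all groups.

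A miRNA gene is transcribed as a long precursor, cut by Drosha to a hairpin and by Dicer to a short duplex. One strand of the duplex, here the 5p strand, is mostly kept by an Argonaute protein, and the other is mostly lost. The bases 2 to 8 from the 5′ end, the seed, pair with target messenger RNAs. The 3′ end is more variable: Drosha and Dicer can cut a base earlier or later, exonucleases can trim it, and terminal nucleotidyl transferases can add bases that the genome does not hold. miR-21 is abundant in many proliferating and mesenchymal cells, and Pdcd4 is a textbook target.

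The Mir21a gene lies at chr11:86584067-86584158 on the minus strand of GRCm38, inside the last exon of Vmp1 on the same strand, in the part annotated as its 3′ UTR. The mature strands, credited to RefSeq (GRCm38.p6), are shown with the seed in capitals, because the reads of each arm and of miR-21c are told apart by them. The first is at chr11:86584120-86584141 and the second at chr11:86584082-86584103. Beneath them stand miR-21c, which has the same seed, and miR-21b, whose seed differs from that of miR-21a-5p by the substitution C4U (position counted from the 5′ end, the base of miR-21a-5p first).
miR-21a-5p: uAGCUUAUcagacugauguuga
miR-21a-3p: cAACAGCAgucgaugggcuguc
miR-21c: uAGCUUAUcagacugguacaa
miR-21b: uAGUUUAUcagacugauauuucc

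The reads of miR-21a-5p ended at different bases, and the shares of these 3′ forms are compared between the media below. Each is shown as a DNA read, with the bases past position 20 in capitals, so that the added genomic bases can be followed from form to form.
21 nt form: tagcttatcagactgatgttG
22 nt form, the mature sequence: tagcttatcagactgatgttGA
23 nt form: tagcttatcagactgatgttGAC
24 nt form: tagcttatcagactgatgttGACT
Of 5225241 reads of miR-21a-5p without a mismatch in the 16 libraries, the 23 nt form took 68.6%, the annotated 22 nt form 15.7%, the 24 nt form 11.7% and the 21 nt form 2.83%. The most common molecule was thus 1 base longer than the annotated one. A form is named here by its templated length, the stretch that matches the hairpin, and a tail beyond it is counted with that form. A tail base that equals the next hairpin base cannot be told from a longer cut, so an A on the 21 nt form is counted as the 22 nt form and a U on the 23 nt form as the 24 nt form.

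Totals ran from 112792 to 6543570 miRNA reads per library. Of the 6 libraries under 1000000 reads, 5 were DM3 and 1 was GM, and 5 were replicate 1. Replicate 2 had more reads than replicate 1 in 8 of 8 pairs of the same line and medium. Sequences under 18 nt made up 1.88% to 6.49% of reads in GM and 2.96% to 18.9% in DM3. Names of miR-6240 and miR-6236 took 35.4% of the reads of replicate 1 of line 1 in tKO DM3 and 17.1% of replicate 2 of line 1 in control DM3. The deleted miR-206-3p averaged 34361 CPM (counts scaled to 1000000 miRNA reads) in DM3 libraries of control cells and 21.8 CPM in those of tKO cells, and the muscle miRNA miR-133a-3p rose from 8.87 CPM in control GM to 1586 CPM in control DM3 (edgeR adjusted p 8.745e-06), so genotype and medium followed the labels. Of 11 markers of liver, neuron, blood, epithelium and endothelium, 1 had no read, and their summed level was 12.1 to 140 CPM over all libraries.

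miR-21a-5p was the most abundant name in 7 of 8 GM libraries and in 4 of 8 DM3 libraries. In control GM it took 8.40% and 15.0% of miRNA reads in line 1 (replicates 1 and 2) and 16.7% and 17.3% in line 2, a mean of 14.3% ± 4.07 (SD, n = 4). In tKO GM the values were 25.2%, 11.4%, 15.6% and 14.6% in the same order, a mean of 16.7% ± 5.94. The genotypes overlapped, and the highest and the lowest of the tKO group were replicates of a single clone.
In control DM3 the values were 4.68%, 5.15%, 6.68% and 10.7%, a mean of 6.81% ± 2.76. In tKO DM3 they were 4.39%, 15.5%, 7.06% and 13.5%, a mean of 10.1% ± 5.23. Both DM3 groups overlapped with the GM group of their genotype, and in tKO DM3 each clone had a low replicate 1 and a high replicate 2. With 4950 to 1128768 reads behind each value, the Wilson 95% intervals were narrow (4.27% to 4.51% in the smallest library), and they cover counting error only.

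**Figure D1:**
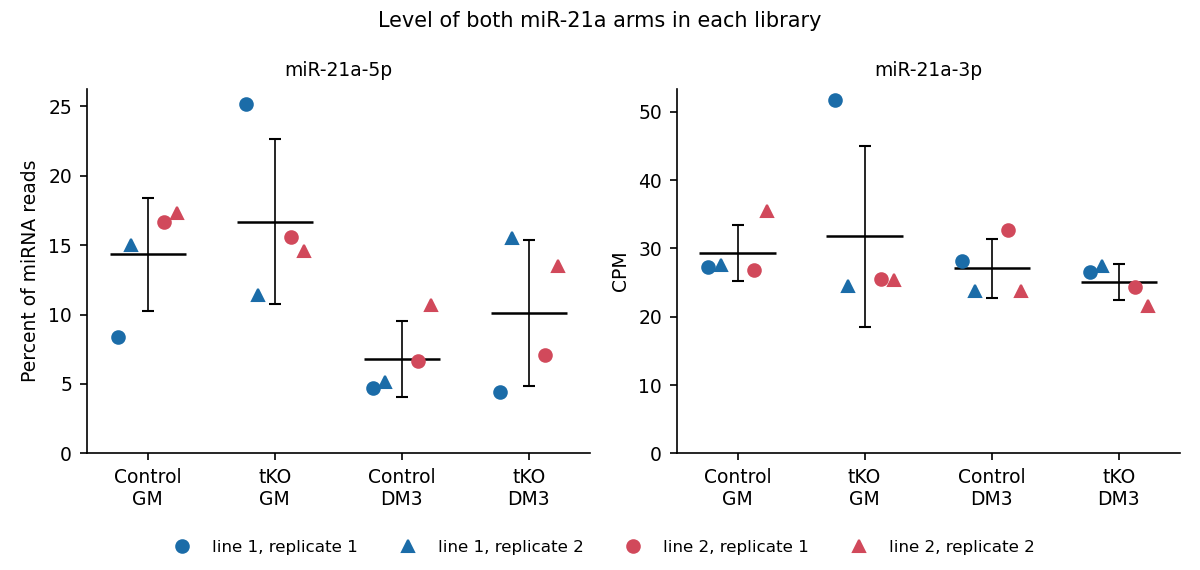
Level of miR-21a-5p as percent of miRNA reads (left) and of miR-21a-3p in CPM (right), with 1 point per library, colour for the line, shape for the replicate, a bar at the group mean and whiskers of 1 SD (n = 4). The 5p arm ranges from 4.39% to 25.2%, with the lowest values in DM3, while the 3p arm stays between 21.6 and 51.7 CPM.

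The order of the group means was tKO GM, control GM, tKO DM3 and control DM3, and each neighbour in that order differed by less than the larger SD of the pair. Other names with a high mean share over the libraries were let-7c-5p (5.97%), miR-6240-3p (4.17%), miR-99b-5p (3.81%), miR-143-3p (3.7%) and miR-27b-3p (3.5%). miR-6240-3p averaged 0.747% in control GM and 1.42% in tKO GM. It exceeded miR-21a-5p in tKO DM3 line 1 replicate 1 (27.1% against 4.39%) and control DM3 line 1 replicate 2 (13.8% against 5.15%). let-7c-5p, a let-7 family member, exceeded miR-21a-5p in replicate 1 of line 1 in control GM (8.76% against 8.40%) and in control DM3 (6.14% against 4.68%). miR-27b-3p, a miRNA known to target Pax3 in muscle progenitors, was above miR-21a-5p in replicate 1 of line 2 in tKO DM3 (7.49% against 7.06%).

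The question of the genotype comparison is whether the loss of miR-206 and miR-1a goes with another level of miR-21a, and no change passed the test. In edgeR's quasi-likelihood test on TMM-scaled counts of 807 names, with Benjamini-Hochberg adjustment, the log2 fold change of miR-21a-5p (tKO over control) was 0.17 (SE 0.46, adjusted p 0.991) in GM and 0.56 (SE 0.46, adjusted p 0.650) in DM3. The 95% intervals ran from -0.80 to 1.14 and from -0.41 to 1.54, so a change within those bounds was not resolved. The DM3 value was 1.12 (edgeR adjusted p 0.261) without control line 2 replicate 2 and 0.93 (adjusted p 0.211) without tKO line 1 replicate 1. Without replicate 2 of tKO line 1 or line 2 it was 0.35 (edgeR adjusted p 0.944) and 0.31 (adjusted p 0.901). In the libraries of at least 1000000 reads, where control DM3 had a single library, it was 0.10. In these contrasts 1.12% of names in GM and 0.867% in DM3 passed. For miR-21a-3p the values were 0.05 (SE 0.36, adjusted p 0.991) and -0.08 (SE 0.39, adjusted p 0.961).

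Between the media, the mean level of miR-21a-5p was lower in DM3. The high level in GM is what chose the miRNA, so the fitted values of this contrast are given as a description and support no call. In control cells the log2 fold change was -1.42 (SE 0.47, 95% interval -2.41 to -0.43, edgeR adjusted p 0.0295), a level 0.374 times that in GM. In that contrast 27.6% of names passed, and 11.8% passed as lower. In tKO cells the value was -1.02 (SE 0.47, upper bound of the 95% interval -0.05, adjusted p 0.138), which did not pass, where 19.7% of names passed and 8.3% as lower. The difference between the 2 genotypes, the interaction, was 0.39 (SE 0.65, edgeR adjusted p 0.937) and did not pass either. It ran from 0.10 to 0.91 with 1 library left out and was 0.91 with replicates of a line summed. In that interaction 0 of 807 names (0%) passed in edgeR and 0 in DESeq2. Of the 807, 37 had an unadjusted p under 0.05 in edgeR, no more than that threshold lets through without any interaction.

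The lower level in DM3 moved with library size. The 6 libraries under 1000000 reads had the 6 lowest shares of miR-21a-5p, 4.39% to 8.4%, and the other 10 had 10.7% to 25.2%. Among those 10, the 7 GM libraries had 11.4% to 25.2% and the 3 DM3 libraries 10.7% to 15.5%. In an edgeR fit of these 10 libraries alone, the log2 fold change was -0.74 (SE 0.65, adjusted p 0.623) in control, where DM3 had a single library assumed to vary like the other groups, and -0.56 (SE 0.47, adjusted p 0.496) in tKO. With every library thinned to the size of the smallest, the log2 fold change was -1.26 (edgeR adjusted p 0.0306) in control and -0.90 (adjusted p 0.119) in tKO. In DM3, sequences under 18 nt made up 4.38% to 18.9% of reads in the 5 libraries under 1000000 reads. In the 3 larger DM3 libraries they made up 2.96% to 4.8%. The parts of library size and of short sequences in the result were not tested.
Taking replicate 1 alone, the tKO cells had a log2 fold change of -2.32 (edgeR adjusted p 0.0189), and taking replicate 2 alone, 0.11 (adjusted p 0.945). In control cells the same values were -1.76 (adjusted p 0.0596) and -1.21 (adjusted p 0.16). Leaving out 1 library took the adjusted p in control cells over 0.05 in 6 of 16 cases: each of the GM libraries except line 1 replicate 1 (-1.49 without line 1 replicate 2, -1.27 without line 2 replicate 1, -1.42 without line 2 replicate 2), and each of the DM3 libraries except line 2 replicate 2 (-1.26 without line 1 replicate 1, -1.34 without line 1 replicate 2, -1.45 without line 2 replicate 1). The edgeR adjusted p was then 0.0641 to 0.113.

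The 3p strand was rare. Over the 16 libraries it had 1077 reads against 5564427 of miR-21a-5p, and single libraries held 3 to 232. In control GM it was at 27.3 and 27.6 CPM in line 1 and 26.9 and 35.5 CPM in line 2, and in tKO GM at 51.7, 24.5, 25.5 and 25.4 CPM. In control DM3 it was at 28.2, 23.7, 32.7 and 23.7 CPM, and in tKO DM3 at 26.6, 27.5, 24.4 and 21.6 CPM. The groups overlapped, and 1 library, tKO GM line 1 replicate 1, stood above the rest and was also the highest for the 5p arm. The log2 fold change from GM to DM3 was -0.52 (SE 0.38, edgeR adjusted p 0.331) in control and -0.65 (SE 0.38, adjusted p 0.244) in tKO. With 1 library left out it ran from -0.68 to -0.50 in control and from -0.86 to -0.23 in tKO.

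Arm use is a ratio inside the locus and does not depend on library scaling. The 3p arm made up 0.016% to 0.0606% of the reads of both arms. The log2 ratio of 3p to 5p reads averaged -12.21 ± 0.44 in control GM and -11.23 ± 0.63 in control DM3. The difference was 0.98 (two-sided exact permutation p 0.0571, n = 4 against 4), and 0.80 to 1.29 with 1 library left out. In tKO the means were -12.37 ± 0.19 and -11.81 ± 0.90, a difference of 0.56 (exact permutation p 0.371). With 1 library left out the tKO difference was 0.18 to 0.82. The 6 libraries under 1000000 reads, with 3 to 22 reads of the 3p arm each, had ratios of -11.59 to -10.69, and the other 10 had -12.61 to -12.15. In those 10 the GM libraries (-12.60 to -12.18) and the DM3 libraries (-12.61 to -12.15) covered the same range. The level of the 3p arm itself was 0.00237% to 0.00327% of reads in the small libraries and 0.00216% to 0.00517% in the others.

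The 3′ end of miR-21a-5p stood apart between the media in both genotypes, while the genotypes overlapped. The 23 nt form made up 70.1%, 69.4%, 71.2% and 70.7% of unmismatched 5p reads in the control GM libraries and 60.0%, 67.2%, 63.3% and 63.9% in control DM3. In tKO it was at 72.3%, 69.3%, 72.1% and 69.5% in GM and 61.6%, 64.1%, 63.5% and 63.9% in DM3. No DM3 library reached any GM library of its genotype, and the differences of the means were -6.73 and -7.52 percentage points (exact permutation p 0.0286 each, the smallest that 4 against 4 can give). As background, 47 names had at least 200 unmismatched reads in each library and a mean length of 20 to 24 nt, and the share of a name's most common length was lower in DM3 without overlap in 8 of them (17%) in control and 10 (21.3%) in tKO. The median difference over these names was 0.146 percentage points in control and -0.289 in tKO.
The 21 nt form was higher in DM3. In control it made up 2.24% to 2.80% in GM and 3.65% to 5.15% in DM3, and in tKO 2.09% to 2.69% in GM and 3.27% to 5.18% in DM3 (exact permutation p 0.0286 each). The length 2 nt under the most common one was higher in DM3 without overlap in 21.3% of the 47 names in control and 27.7% in tKO. The 22 nt form averaged 15.0% ± 0.452 in control GM and 17.8% ± 2.95 in control DM3, which overlapped (exact permutation p 0.143), and 14.4% ± 0.641 and 19.2% ± 1.48 in tKO, which did not (exact permutation p 0.0286). For the length 1 nt under the most common one, 25.5% of the 47 names were higher in tKO DM3 without overlap. The tKO and control groups of a medium overlapped for each of these forms, with exact permutation p of 0.229 to 0.943.

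**Figure D2:**
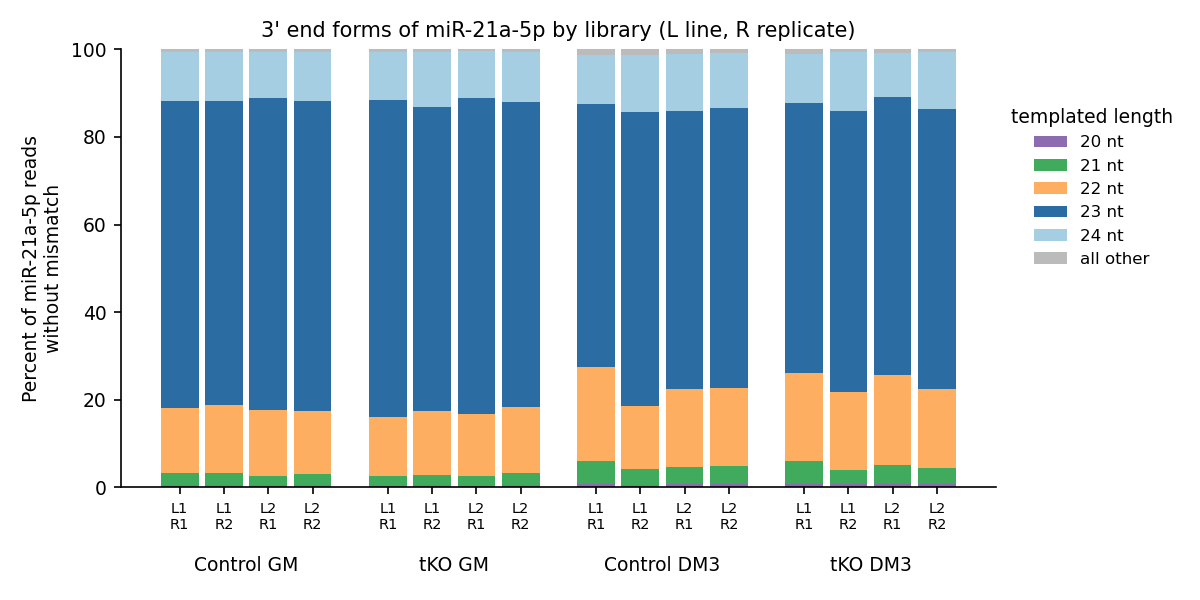
Share of each 3′ end form of miR-21a-5p in percent of its reads without mismatch, with 1 stacked bar per library, by group. The 23 nt form (dark blue) takes 69.3% to 72.3% in the 8 GM libraries and 60% to 67.2% in the 8 DM3 libraries, and the 21 nt form (green) is larger in DM3.

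Over the 68 tests of arm use, ends and tails (17 measures, 4 contrasts), 15 had an exact permutation p under 0.05, and the smallest Benjamini-Hochberg adjusted p was 0.13, so none passed after adjustment. Over both genotypes the 23 nt form averaged 70.6% in GM and 63.4% in DM3, and the 21 nt form 2.46% and 4.11%, in the same direction in 4 of 4 lines for each. A test chosen after these values were seen permuted the medium within each of the 4 lines (1296 assignments), and it is given for completeness and not as support. In this exact permutation test 9 of 17 measures had an adjusted p under 0.05. In 5 of them (the 21 and 23 nt forms, the A tail, the C tail and tails of any kind, adjusted p 0.00525) the media did not overlap, which by itself fixes p at its smallest, 0.00154. The others were the 22 nt form and the 3p tails of any kind (adjusted p 0.0112 each), the 5′ start of the 5p arm (0.023) and arm use (0.0466), each in the same direction in 4 of 4 lines. With 1 library left out, 4 against 3 libraries without overlap give an exact permutation p of 0.0286 or 0.0571. The latter was found for the 23 nt form in control when any GM library was left out, and for the 21 nt form in tKO without GM line 1 replicate 1, GM line 1 replicate 2 or GM line 2 replicate 1. The 22 nt form in control went from 17.8% against 15.0% to a difference of 4.06 points (exact permutation p 0.0286) without DM3 line 1 replicate 2. The shift was also present in the 10 larger libraries, where the 23 nt form was at 69.3% to 72.3% in the 7 GM libraries and 63.9% to 64.1% in the 3 DM3 libraries, and the 21 nt form at 2.09% to 2.75% and 3.27% to 4.09%. The mean templated length of the unmismatched reads, which leaves out tails, differed by 0.03 nt (DM3 minus GM) in control (exact permutation p 0.543). In tKO it differed by -0.10 nt, and the groups did not overlap (exact permutation p 0.0286). The control value changed sign to -0.06 with reads of 18 to 25 nt. Among the 47 names, 15 (31.9%) in control and 14 (29.8%) in tKO were shorter in DM3 with no overlap between the groups.

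Tails showed the same split by medium. Reads with any non-templated 3′ base averaged 22.1% ± 1.07 in control GM and 17% ± 1.35 in control DM3, and 21.3% ± 0.46 and 17.8% ± 1.8 in tKO (exact permutation p 0.0286 each). Of the 47 names, 32 (68.1%) in control and 17 (36.2%) in tKO had fewer reads with a tail in DM3 without overlap, so the lower share in control was shared by most of them. A single A was added to 7.11%, 7.19%, 8.13% and 7.06% of 5p reads in control GM and to 4.14%, 4.32%, 4.44% and 4.79% in control DM3. In tKO it was added to 7.74%, 7.20%, 7.89% and 6.67% in GM and 3.78%, 5.04%, 4.40% and 5.13% in DM3. The media did not overlap in either genotype (differences -2.95 and -2.79 percentage points, exact permutation p 0.0286 each), and the genotypes overlapped in both media (exact permutation p 0.971 in GM and 0.686 in DM3).
A single C was also less common in DM3, at 3.99% ± 0.0643 in GM and 3.32% ± 0.247 in DM3 in control and at 4.19% ± 0.295 and 3.25% ± 0.437 in tKO (exact permutation p 0.0286 each). A single U, listed as T in the tables, was at 8.84% ± 0.487 and 8.23% ± 1.44 in control GM and DM3 and at 8.45% ± 0.589 and 8.72% ± 1.03 in tKO (exact permutation p 0.514 and 0.743). A single G was at 2.42% and 1.76% in the control GM libraries of line 1 and at 1.06% or less in all others. In control the mean G tail was lower in DM3 for all 47 names, without overlap in 2.13% of them. The median difference was -1.37 percentage points, and that of miR-21a-5p was -0.783. The A tail, the C tail and tails of any kind were each lower in DM3 in 4 of 4 lines. With 1 library left out, the A tail difference stayed at -3.07 to -2.70 points in control and -3.02 to -2.52 in tKO, and the exact permutation p at 0.0286. In tKO, tails of any kind (without any GM library) and C tails (without any GM library except line 2 replicate 1, or without replicate 1 of either DM3 line) went to 0.0571 in that exact permutation test. In the 10 larger libraries the A tail was at 6.67% to 8.13% in GM and 4.79% to 5.13% in DM3. In the libraries under 1000000 reads it was at 7.11% in the 1 GM library and at 3.78% to 4.44% in the 5 DM3 libraries. Within DM3 the smaller libraries were thus all below the larger ones, and the part of library size was not tested.

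**Figure D3:**
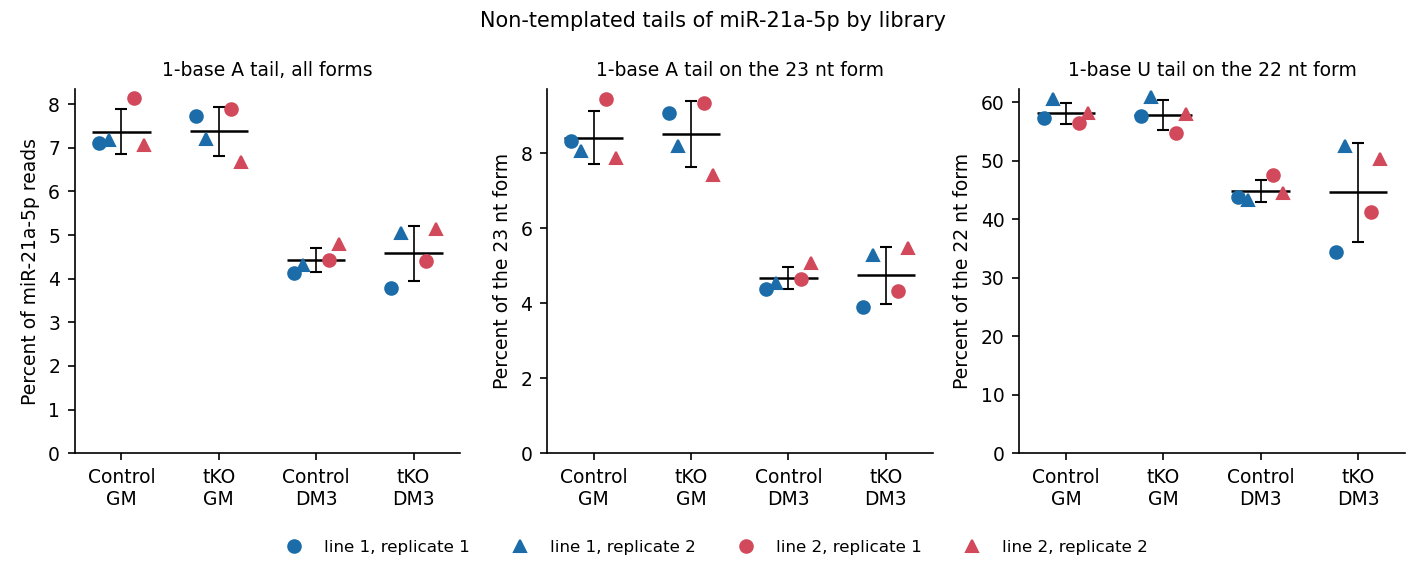
Single-base tails of miR-21a-5p by library: A tails over all forms (left), A tails on the 23 nt form (middle) and U tails on the 22 nt form (right), in percent, with 1 point per library, group means and SD (n = 4). All 8 DM3 libraries lie below all 8 GM libraries in each panel, for example at 3.78% to 5.13% against 6.67% to 8.13% for the A tail.

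The tails sat on particular forms. This split was made after the tails had been seen and has no test. On the 23 nt form the A tail was present in 8.42% ± 0.705 of reads in control GM and 4.67% ± 0.295 in control DM3, and in 8.51% ± 0.876 and 4.75% ± 0.752 in tKO. The rare 20 nt form had an A in 43.7% ± 1.11 and 44.4% ± 2.56 of its reads in control GM and DM3 and in 42.4% ± 4 and 49.3% ± 3.26 in tKO, so the lower A tail in DM3 was not seen on every form. On the 22 nt form the common tail was a U, at 58.1% ± 1.79 and 44.8% ± 1.93 in control GM and DM3, and at 57.8% ± 2.53 and 44.5% ± 8.39 in tKO. The hairpin holds a C at that place, so a read of the 22 nt form with a U has the length of the 23 nt form and differs from it in its last base, and a tail cannot there be told from a changed last base. Without any tail, the annotated 22 nt sequence made up 4.87% ± 0.328 of unmismatched 5p reads in control GM and 8.69% ± 1.62 in control DM3, and 4.82% ± 0.456 and 9.43% ± 2.47 in tKO. The 23 nt form with an A made up 5.93% ± 0.542 and 2.97% ± 0.257 in control and 6.03% ± 0.744 and 3.01% ± 0.519 in tKO.

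The A tail was lower in DM3 for other miRNAs too. Among the same 47 names, the A tail share of 22 names (46.8%) in control and 8 (17%) in tKO was lower in DM3 with no overlap between the groups. The median difference over the 47 names was -1.04 percentage points in control and -0.412 in tKO. The difference of miR-21a-5p was the second lowest of 47 in control and the lowest in tKO, with miR-30c-5p at -3.01 and -2.19. The C tail showed another pattern: its median difference was -0.437 in control and 0.323 in tKO, where miR-21a-5p stood at -0.67 and -0.94. For the C tail, 10.6% of names in control and 8.51% in tKO were lower in DM3 without overlap.

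**Figure D4:**
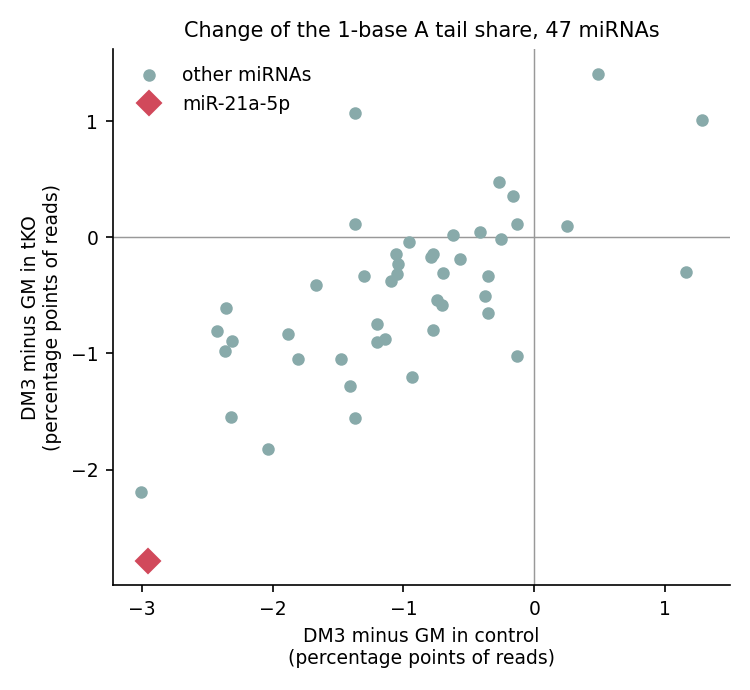
Difference of the single-A tail share between DM3 and GM in control (x axis) and in tKO (y axis), in percentage points, with 1 point for each of 47 miRNAs. miR-21a-5p (red diamond) lies at -2.95 and -2.79, and the medians of the 47 names are -1.04 and -0.412.

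The 5′ end, which sets the seed, was nearly fixed. Of unmismatched 5p reads, 99.53% to 99.65% in GM and 99.29% to 99.56% in DM3 started at the first mature base, and most others started 1 base earlier. The group means were 99.58% and 99.51% in control (exact permutation p 0.0286) and 99.59% and 99.48% in tKO (exact permutation p 0.114). In control it missed the threshold without any of the DM3 libraries or without GM line 2 replicate 2 (differences -0.085 to -0.048 over all libraries left out). For the 3p arm, 711 of 972 unmismatched reads (73.1%) started at its first mature base and 224 (23%) began in the loop. The tails of the 3p arm rest on 2 to 216 unmismatched reads per library. The share of its reads with a tail was 15.4% to 39.4% in control GM and 31.6% to 83.3% in control DM3 (exact permutation p 0.0857), and 27.9% to 33.3% and 36.5% to 56.2% in tKO (exact permutation p 0.0286). Without DM3 line 1 replicate 2 the control difference was 35.86 points (exact permutation p 0.0286), and without any GM library the tKO groups gave an exact permutation p of 0.0571.

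Reads with a mismatch made up 5.85% to 6.26% of miR-21a-5p reads in every library, with no gap between the groups. The most common single substitution was U1A, in 0.539% of 5p reads, counted from the 5′ end with the mature base first. By kind, 31% of the mismatch reads had a U-to-C change and 24.3% an A-to-G change, and changes in the seed bases made up 30.6%. The deposited tables list reads whose templated part is the mature sequence, with or without a tail, as miR-21a-5p (818038 reads, 14.7%). All other reads are listed as miR-21-5p (4746389 reads, 85.3%). A count of the name with the letter a alone would thus miss most of the miRNA.

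The other miR-21 names and those of miR-590 were rare, and the seed of miR-590 was not compared here. The name miR-21c-5p held 12068 reads, but 11183 of them (92.7%) were this 17 nt fragment, which equals the first 17 bases of miR-21a-5p and is shown to let it be compared with the forms above.
17 nt fragment: tagcttatcagactgat
None of the reads of 18 nt or more under that name was free of mismatches, and miR-21c differs from miR-21a-5p from position 16 on (A16G). The fragment amounted to 0.154% to 0.26% of the miR-21a-5p reads in GM and 0.264% to 0.474% in DM3 for control, and to 0.166% to 0.187% and 0.235% to 0.338% for tKO. miR-21b-5p had 352 reads over all libraries, miR-21b-3p 156, miR-590-3p 69, miR-21c-3p 19 and miR-590-5p 1.

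Across the 16 libraries, the names whose log2(CPM + 1) followed miR-21a-5p most closely among 294 names of at least 100 CPM in a group were let-7f-5p (Pearson r 0.96), let-7i-5p (0.954) and miR-196a-5p (0.933). The libraries share depth and groups, so these values are a description. let-7f-5p averaged 14307, 16157, 7460 and 10737 CPM in control GM, tKO GM, control DM3 and tKO DM3, the same order of groups as miR-21a-5p. For miR-21a-3p the closest of 295 names were miR-101b-3p (0.549), miR-20a-5p (0.544) and miR-16-1-3p (0.488), and miR-21a-5p, from the same hairpin, came 12th (0.383).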

How the data were processed

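Small RNA libraries (0.5 µg total RNA, 15 to 50 nt inserts) were described by the deposited unitas tables. Per the submitters' processing notes, cutadapt 1.15, STAR 2.5.4 and mm10 were used; their roles and the unitas version are not given in the sources used here. The deposited values are expected counts of reads per sequence, without normalization, with further deposited columns for tails. Here, counts were summed per name (2510 names, of which 237 variants were merged, leaving 2273), rounded, filtered (filterByExpr, minimum count 10) and tested in R 4.3.3 with edgeR 4.0.16 (TMM, all 16 libraries, robust quasi-likelihood fit, Benjamini-Hochberg over 807 names). Shares within miR-21a were compared by two-sided exact permutation of libraries. Scripts were tested on simulated data. Replicates are separate cultures only as far as the labels call them biological, and lines repeat, so p-values measure the spread between these libraries. Reads carry no molecular identifiers, so intervals cover counting error only.

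The members and lists were chosen with earlier results of these data known. Named besides the members were miR-21b, miR-21c and miR-590, the 5 other names of highest mean CPM, the 3 most alike in level over the libraries, and, as a check of the labels, the muscle miRNAs miR-1a-3p, miR-133a-3p and miR-206-3p. miR-30c-5p was named after its values were seen. Alternatives covered scaling, filters, DESeq2 1.42.0, blocks, read lengths, mismatches, depth and each library left out. miR-1a-3p was at 5.27, 1.39, 109 and 3 CPM in control GM, tKO GM, control DM3 and tKO DM3.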

Additional observations from a re-analysis of the deposited data

Results flagged for a closer look

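In each group of 4 libraries, the highest and lowest value was compared with its neighbour by Dixon's ratio at its 95% critical value. Of 52 group values, 7 had a library apart from the other 3, where chance gives about 1 in 20. For miR-21a-3p these were its share of reads in control GM line 2 replicate 2 (0.00355%) and in tKO GM line 1 replicate 1 (0.00517%). For miR-21a-5p they were the mean length in tKO GM line 1 replicate 2 (22.97 nt), the share starting at the first mature base in control DM3 line 1 replicate 1 (99.44%) and in tKO DM3 line 1 replicate 1 (99.29%), the A tail in control GM line 2 replicate 1 (8.13%) and the U tail in control GM line 1 replicate 2 (9.56%). The library of tKO DM3 line 1 replicate 1 is also the smallest, and its value rests on 4654 unmismatched reads.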

How the results depend on the processing

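Depth limits the 3p strand (3 to 232 reads a library) and the small DM3 libraries; with scaling by total counts, the median over all names of the log2 fold change between the media went from 0.023 to 0.39 in control and from 0.0081 to 0.24 in tKO. The level of miR-21a-5p between the media in control, a description since the GM level chose the miRNA, had a log2 fold change of -1.95 to -0.74 over 35 alternatives (edgeR adjusted p 0.00713 to 0.623). The adjusted p was over 0.05 with 18 to 25 nt reads (-1.05), replicates of a line summed (-1.28), names as listed (-1.19), replicate 1 alone (-1.76), replicate 2 alone (-1.21), the libraries of at least 1000000 reads (-0.74), or without 1 of 6 libraries (leave-one-out range -1.95 to -1.26). In tKO it was under 0.05 in 1 of 35, replicate 1 alone (-2.32), and the value reversed with replicate 2 alone (0.11). The tKO value was -0.38 with replicates of a line summed and -1.38 to -0.66 with 1 library left out (main -1.02). The causes were not tested. With the replicate block the 5p values were -1.45 (edgeR adjusted p 0.0260) in control and -1.19 (adjusted p 0.0916) in tKO. With the replicate block and line block, they were -1.50 (edgeR adjusted p 0.00928) and -1.20 (adjusted p 0.0501), again as a description. Libraries of the same replicate number did not deviate together throughout (correlations -0.462 to 0.632, mean 0.1, 25 of 48 pairs over 0.1, against a mean of -0.0933 for different numbers). On these correlations over many names the number is not taken as a pairing. Library size did follow the number, with replicate 2 larger in 8 of 8 pairs, and its part in the miR-21a values was not tested. Over the shares the replicate block cannot go below an exact permutation p of 0.0556, so with it no share measure is under 0.05.

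The genotype and interaction values, none of which passed, changed sign in these alternatives. For miR-21a-5p in GM they were -0.26 with replicates summed, -0.66 with replicate 2 alone and -0.09 in the larger libraries, and for miR-21a-3p -0.29, -0.70 and -0.08. For miR-21a-3p in DM3 they were 0.04 without a filter and at a minimum count of 50. They were 0.01 with only the groups compared and with names as listed, and 0.06 by hairpin match. With the replicate block and line block, which sets line 1 of tKO against line 1 of control, the value was 0.29. The interaction was -0.57 for the 5p arm with replicate 1 alone, and 0.13 (replicates summed) and 0.56 (replicate 2 alone) for the 3p arm. Over 35 alternatives the 5p genotype value was -0.66 to 0.78 in GM (main 0.17) and 0.10 to 1.12 in DM3 (main 0.56). For genotype, the fit with the replicate block and line block compares line 1 of tKO with line 1 of control, not the mean of the 2 lines. That fit gave 0.78 in GM, the top of the range, and 1.08 in DM3. With replicate 1 alone the 5p genotype value was 0.76 in GM. The number of names passing over the alternatives was 2 to 19 (main 9) for genotype in GM, 1 to 74 (main 7) in DM3, 85 to 274 (main 223) for medium in control, 74 to 193 (main 159) in tKO and 0 to 1 (main 0) for the interaction.

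Among the shares, mean length for genotype in DM3 reached an exact permutation p of 0.0286 with mismatched reads (-0.11 nt), and for medium in control reversed with 18 to 25 nt reads (-0.06). The 5p start for genotype in GM was -0.019 with 18 to 25 nt reads, and for medium in control it missed the threshold at -0.059 with mismatched reads and -0.067 with 18 to 25 nt. The A tail for genotype in GM was -0.0083 with mismatched reads. Tails of the 3p arm were -1.96 for genotype in GM (18 to 25 nt) and 13.44 for medium in tKO (mismatched reads, past the threshold no longer).

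Leaving out 1 library in turn gave these ranges where a sign or a side of the threshold changed. Genotype in GM: 5p level -0.20 to 0.42, 3p level -0.38 to 0.25, arm ratio -0.29 to 0.047, 23 nt form -0.059 to 0.96, 5p start -0.02 to 0.021, any 5p tail -1.25 to -0.46, A tail -0.17 to 0.25, C tail 0.093 to 0.33, 3p start -3.94 to 10.49, any 3p tail -2.58 to 5.43. Genotype in DM3: 3p level -0.11 to 0.09, 21 nt form -0.52 to 0.19, 23 nt form -1.55 to 0.85, mean length -0.12 to -0.072, 5p start -0.056 to 0.034, A tail -0.014 to 0.43, C tail -0.22 to 0.064, U tail -0.14 to 1.01, 3p start -10.65 to 18.51, any 3p tail -16.69 to 0.56. Medium in control: 22 nt form 1.66 to 4.06, 23 nt form -7.92 to -5.52, mean length -0.0025 to 0.047, 5p start -0.085 to -0.048, U tail -1.13 to 0.016, any 3p tail 18.61 to 35.86. Medium in tKO: 21 nt form 1.33 to 1.97, mean length -0.11 to -0.077, any 5p tail -4.04 to -2.73, C tail -1.09 to -0.81, G tail -0.17 to 0.032, U tail -0.009 to 0.76, 3p start -25.41 to 3.75, any 3p tail 14.51 to 21.10. A side of the threshold changed for genotype without control GM line 2 replicate 2 (any 5p tail, -1.25), without tKO GM line 2 replicate 1 (C tail, 0.33) and without control DM3 line 2 replicate 2 (mean length, -0.12). Interaction: 3p level -0.35 to 0.28.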
